A study of Mus musculus with 11 samples.

Results

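The genes described here build the base of the primary cilium, the single antenna-like organelle that fibroblasts assemble from their mother centriole after serum is withdrawn. They are 44 genes among the 21684 genes of the deposited count table, chosen by name with earlier results of these data known. The rule itself uses no measured value. All 44 were among the 13332 genes expressed highly enough to be tested. The cells were NIH/3T3, an immortalised mouse embryo fibroblast line, and every group had 24 h in standard medium followed by 24 h without serum. WT cells gave 2 libraries. Each knockout line, named for the gene removed as Xap5 KO, Nono KO or Sox5 KO, gave 3. The labels name neither clones nor guide RNAs, so each knockout was taken as 1 line. In every change against WT, removal of the gene therefore cannot be told apart from other differences between that line and WT. The p-values measure only the spread between these libraries, which may not be separate cultures. The series asks which genes the 3 knockouts change in common and which separately while cilia form.

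At the foot of the cilium the mother centriole is called the basal body. Its distal appendages dock it to a vesicle and then to the plasma membrane, its subdistal appendages anchor microtubules, and a cap of Cep97 and Ccp110 keeps it from extending an axoneme until the kinase Ttbk2 is recruited and the cap is removed. Small vesicles supplied through Rab11a, Rab3ip and Rab8a and reshaped by Ehd1 and Ehd3 form the ciliary membrane. Just above the basal body lies the transition zone, a gate made of the MKS module of membrane and B9-domain proteins and the NPHP module, with the inversin compartment distal to it. Variants in many of these genes underlie the human ciliopathies, among them Joubert, Meckel and nephronophthisis syndromes.

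Promoter sequences are shown first because many ciliary genes carry an X-box, the palindromic element bound by RFX factors, and because Sox proteins such as the one removed in Sox5 KO bind cores of the letters AACAAT. RefSeq promoters of GRCm38.p6, spanning 250 bases before to 50 bases after each start, were matched by symbol for 38 of the 44 genes. The X-box was searched as the half-site GTNNCC followed, after any pair of bases, by GGNNAC, which reads the same on both strands, and AACAAT was searched on both strands. X-box letters were present in 11 of the 38 genes (28.9%), against 2.16% of all 27025 genes with a promoter and 1.88% of all 32851 promoters. Of these 11 genes, 7 belong to the MKS module. The AACAAT letters were present in 3 of the 38 (7.89%), against 12.2% of all genes and 10.7% of all promoters, and no member held both motifs. The sequences below are those of the members with a match and a called change in any line, printed 5′ to 3′ along the gene's own strand with the match in capitals, and the first 8 are X-box matches and the last 3 AACAAT matches, 2 of them read as ATTGTT.
Tctn1: ctgtgactGTTGCCCGGGCAAC
Tctn2: gattggagGTTACCATGGCTACtggtcctc
Tmem231: cgccgtcgGTTGCCGTGGAGACtcggcgct
Ahi1: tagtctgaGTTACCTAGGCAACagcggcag
Nphp4: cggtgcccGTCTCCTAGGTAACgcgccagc
Cep83: ccctccgaGTTTCCCGGGCTACctcaacct
Rab3ip: ccagagtgGTTCCCAGGGAAACcgctgtag
Cep19: agccttctGTTGCCTTGGGAACgatcctcg
Rab8a: cgcgcggaATTGTTggggtccc
Rab11a: attttaggATTGTTtttcctgt
Cep97: gtttatctAACAATacagcttg

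The X-box stretches lie on GRCm38.p6 at chr5:122264411-122264432 (minus strand) for Tctn1, chr5:124598679-124598708 (plus strand) for Tctn2, chr8:111933781-111933810 (minus strand) for Tmem231, chr10:20952560-20952589 (plus strand) for Ahi1, chr4:152477903-152477932 (plus strand) for Nphp4, chr10:94688768-94688797 (plus strand) for Cep83, chr10:116950615-116950644 (minus strand) for Rab3ip and chr16:32099803-32099832 (plus strand) for Cep19. The 3 remaining X-box matches, in Mks1, Tmem216 and Tmem237, belong to members called in no line. The AACAAT stretches lie at chr8:72160960-72160981 (plus strand) for Rab8a, chr9:64737887-64737908 (minus strand) for Rab11a and chr16:55935000-55935021 (minus strand) for Cep97. The Cep83 match began 14 bases before the annotated start and the Ahi1 match at base 22 of the transcript, counted from 1 at the start. Genes with an X-box match did not move as a block. In Sox5 KO, 3 of the 11 were higher and 3 lower, and the other 27 genes with a promoter had 6 higher and 14 lower. In Nono KO the counts were 4 higher and 2 lower with a match and 2 higher and 13 lower without. In Xap5 KO they were 1 higher and 3 lower with a match and 4 higher and 8 lower without. Of all tested genes, 30.6% were higher and 30.3% lower in Sox5 KO, 23.5% and 25.1% in Nono KO, and 23.2% and 22.3% in Xap5 KO. These counts are descriptions of letters in a window, and occupancy by any factor was not measured.

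The libraries held 30205878 to 43498383 counts. Fam50a, the mouse symbol of Xap5, stood at 7.49 to 7.91 CPM (counts scaled to a common library size) in Xap5 KO against 62.9 and 64.8 in WT, and Nono at 27.6 to 34.0 CPM in Nono KO against 351 and 357 in WT. Sox5 stood at 12.6 to 13.9 CPM in Sox5 KO against 45.9 and 49.7 in WT, but also at 11.9 to 15.02 CPM in Xap5 KO and 7.01 to 8.75 CPM in Nono KO, so a low Sox5 level was shared by all 3 knockout lines. All 8 fibroblast markers were present in every group, with a summed level of 23532 to 23541 CPM in WT, 18154 to 19436 in Xap5 KO, 42930 to 46810 in Nono KO and 19027 to 19540 in Sox5 KO. Summed levels were at most 0.50 CPM for 6 epithelial, 10.9 CPM for 5 blood cell and 2.79 CPM for 4 endothelial markers. Each of these maxima was in Nono KO. There the mean sum was 8.70 CPM for blood cell markers, against 2.09 in WT, and 2.06 CPM for endothelial markers, against 0.76 in WT. The 10 markers of cycling cells, none of them a member, summed to 346 to 415 CPM in WT, 656 to 742 in Xap5 KO, 401 to 561 in Nono KO and 466 to 499 in Sox5 KO. Their part in the results below was not tested. In bulk RNA, fewer ciliated cells and less RNA per cell cannot be told apart.

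The basal body and transition zone genes had a median level of 27.2 CPM, against 27.9 CPM over all tested genes. More of them were called lower than higher in each knockout. Changes were called where edgeR's quasi-likelihood test gave a Benjamini-Hochberg adjusted p under 0.05 over all tested genes. Xap5 KO had 6 higher and 14 lower members relative to WT, 45.5% of the 44, and the same share of all tested genes was called (45.5%, with 23.2% higher and 22.3% lower). Nono KO had 7 higher and 18 lower (56.8% of members), where 48.6% of all tested genes were called, 23.5% higher and 25.1% lower. Sox5 KO had 10 higher and 22 lower (72.7% of members), where 60.9% of all tested genes were called, 30.6% higher and 30.3% lower. The share of members called thus equalled the background in Xap5 KO and lay above it in Nono KO and Sox5 KO. In Sox5 KO it was no longer above the background with an offset for each chromosome's median (56.8% of members against 57.8% of all tested genes), with an offset fitted to length and GC content (54.5% against 56.6%), without Sox5 KO replicate 1 (54.5% against 56.6%) or without Sox5 KO replicate 2 (56.8% against 56.8%). In Xap5 KO the chromosome offset gave 34.1% of members against 38.8%, with 7 higher and 8 lower and a member median of 0.024. In Nono KO the length and GC offset gave 50% against 48.3%. The members' median log2 fold change was -0.0086, -0.22 and -0.25 in these lines in the same order, against medians over all tested genes of 0.0026, -0.020 and -0.0058.

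Most changes were small. No member changed 2-fold or more in Xap5 KO, 1 did in Nono KO and 5 did in Sox5 KO, all of them lower, where 10.3%, 11.2% and 17.2% of all tested genes passed both rules. The knockout libraries all lay above the WT libraries for 12, 11 and 10 members in the same order (32.3%, 31.3% and 37.8% of all tested genes). They all lay below WT for 20, 26 and 23 members (31.4%, 34.2% and 38.0%). With library totals in place of TMM scaling, which gave all genes a median of -0.046, -0.18 and -0.12 in that order, the split was 4 higher and 28 lower in Nono KO and 4 higher and 24 lower in Sox5 KO. Per kilobase of the longest transcript, the members' mean level ran from 1.18 CPM per kb for Mks1 to 56.0 for Ehd1, with a median of 6.73 against 8.22 over all tested genes.

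**Figure D1:**
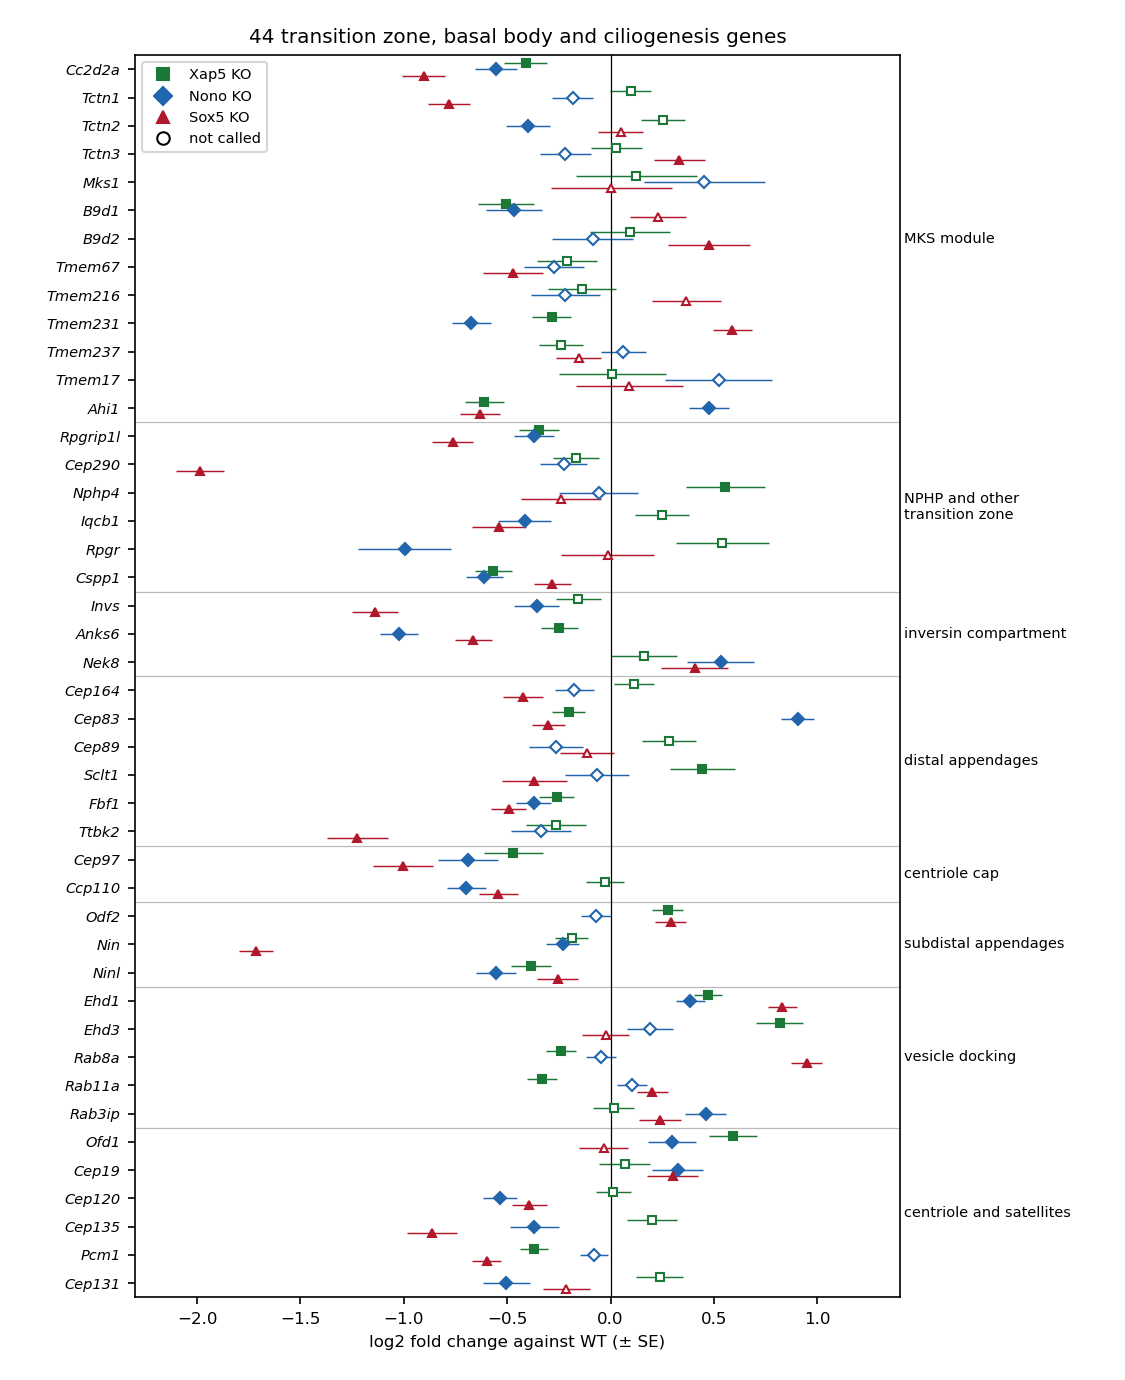
Log2 fold change against WT with its standard error (horizontal axis) for the 44 members, ordered by compartment (rows), with squares for Xap5 KO, diamonds for Nono KO and triangles for Sox5 KO, and open symbols where the change was not called. The triangles of Cep290 and Nin lie farthest left, at -1.99 and -1.72, and the farthest right are Rab8a in Sox5 KO at 0.95 and Cep83 in Nono KO at 0.90.

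Of the 44 genes, 8 were called in the same direction in all 3 knockouts, where 15.9% of all tested genes were (8.33% higher and 7.61% lower). Cc2d2a, Rpgrip1l, Cspp1, Anks6, Fbf1, Cep97 and Ninl were lower, and Ehd1 was higher. Only Cc2d2a and Ehd1 kept all 3 calls under every alternative given at the end but the 2-fold rule. With the chromosome offset described below 8 genes were again in common, 2 higher and 6 lower, but not the same ones. Rpgrip1l, at 0.0017 in Xap5 KO, had left them, and Rab3ip, then called higher in Xap5 KO at 0.48, had joined them. In none of the 3 knockouts were Mks1, Tmem216, Tmem237, Tmem17 and Cep89 called, 5 of the 44, where 19.7% of all tested genes were called in none. The 3 comparisons share the same 2 WT libraries, so they are not independent. The count was 4 without WT replicate 1 and 4 without WT replicate 2, and it was 5 with the length and GC offset described below.

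**Figure D2:**
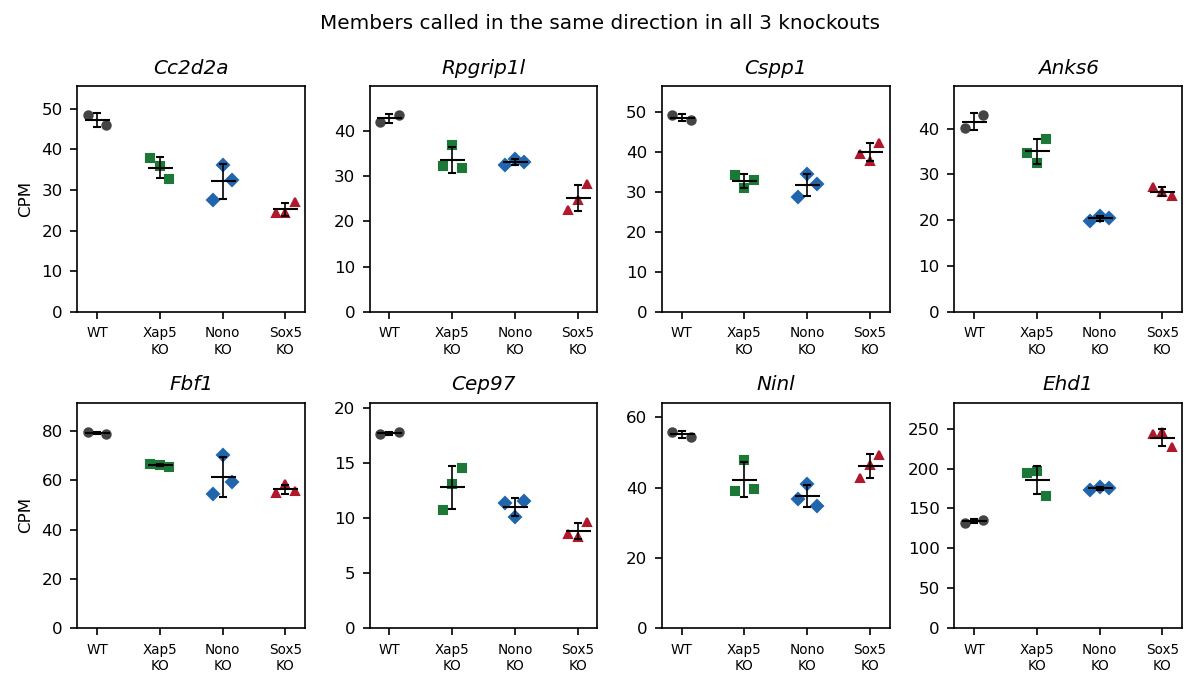
CPM (vertical axis, from 0) in each library of the 4 groups for the 8 members called in the same direction in all 3 knockouts, with bars for the mean ± SD. In each panel the 2 WT points lie outside the range of the 9 knockout points, above it in 7 panels and below it for Ehd1.

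The MKS module of the transition zone moved in both directions. Of its 13 genes, none was higher and 4 were lower in Xap5 KO, 1 was higher and 4 were lower in Nono KO, and 3 were higher and 4 lower in Sox5 KO. The 4 lower genes are 30.8% of the module, where 22.3%, 25.1% and 30.3% of all tested genes were lower in these lines, so the share in Sox5 KO was that of all genes. Cc2d2a, a coiled-coil scaffold on which the module assembles (ENSMUSG00000039765, chromosome 5), was at 48.3 and 45.9 CPM in WT, at 37.8, 35.8 and 32.7 in Xap5 KO, at 27.5, 36.1 and 32.5 in Nono KO and at 24.2, 24.4 and 26.9 in Sox5 KO. All 9 knockout libraries were below both WT libraries, and the Sox5 KO libraries were the lowest. The log2 fold changes were -0.41 (SE 0.103, adjusted p = 0.00248, edgeR) in Xap5 KO, -0.55 (SE 0.103, adjusted p = 0.000126, edgeR) in Nono KO and -0.90 (SE 0.104, adjusted p = 1.60e-07, edgeR) in Sox5 KO. Cc2d2a was also lower in Sox5 KO than in Xap5 KO and Nono KO, since Xap5 KO exceeded Sox5 KO by 0.49 (SE 0.0949, adjusted p = 0.000122, edgeR) and Nono KO exceeded it by 0.35 (SE 0.0951, adjusted p = 0.00308, edgeR).

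Tmem231, a transmembrane protein of the gate (ENSMUSG00000031951, chromosome 8), went in opposite directions in different lines. Its level was 28.3 and 31.9 CPM in WT, 23.3, 24.8 and 25.9 in Xap5 KO, 17.99, 19.1 and 19.5 in Nono KO and 44.99, 47.7 and 43.00 in Sox5 KO. The Sox5 KO libraries were all above WT and the Xap5 KO and Nono KO libraries all below it, with no overlap between any pair of groups. The log2 fold change against WT was -0.67 (SE 0.0936, adjusted p = 4.01e-06, edgeR) in Nono KO and 0.59 (SE 0.0944, adjusted p = 1.47e-05, edgeR) in Sox5 KO, and the direct difference between Nono KO and Sox5 KO was -1.26 (SE 0.0855, adjusted p = 4.15e-11, edgeR). In Xap5 KO the change was -0.29 (SE 0.0933, adjusted p = 0.0165, edgeR), which reached -0.20 (adjusted p = 0.198) without WT replicate 2 and 0.063 (adjusted p = 0.643) with the chromosome offset described below, both from edgeR and not called.

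Ahi1, the Joubert syndrome gene whose product jouberin sits at the gate (ENSMUSG00000019986, chromosome 10), was higher in Nono KO and lower in the other lines. There were 32.9 and 28.8 CPM in WT, 20.7, 21.01 and 18.9 in Xap5 KO, 45.1, 42.1 and 41.5 in Nono KO and 20.5, 18.7 and 20.5 in Sox5 KO. No Nono KO library overlapped another group, and the Xap5 KO and Sox5 KO libraries lay together below WT. The changes were -0.61 (SE 0.0960, adjusted p = 2.31e-05, edgeR) in Xap5 KO, 0.48 (SE 0.0965, adjusted p = 0.000331, edgeR) in Nono KO and -0.63 (SE 0.0968, adjusted p = 8.23e-06, edgeR) in Sox5 KO, and Xap5 KO was below Nono KO by a difference of -1.09 (SE 0.0871, adjusted p = 1.21e-09, edgeR). Chromosome 10, which carries Ahi1, had a median change of -0.46 on the log2 scale over all its tested genes in Xap5 KO, and with the chromosome offset the change there was -0.15 (adjusted p = 0.25) in edgeR and was not called.

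B9d1, a B9-domain protein of the module (ENSMUSG00000001039, chromosome 11), was lower in Xap5 KO and Nono KO. Its libraries held 15.9 and 12.9 CPM in WT, 9.37, 10.1 and 10.97 in Xap5 KO, 10.8, 9.99 and 10.5 in Nono KO and 15.8, 17.9 and 16.9 in Sox5 KO. The Xap5 KO and Nono KO libraries were below WT, and those of Sox5 KO overlapped WT replicate 1. The changes were -0.51 (SE 0.136, adjusted p = 0.00446, edgeR) in Xap5 KO and -0.47 (SE 0.136, adjusted p = 0.00695, edgeR) in Nono KO, and both calls rested on WT replicate 1, without which they were -0.36 (adjusted p = 0.108) and -0.31 (adjusted p = 0.165) in edgeR. The partner B9d2 was called only in Sox5 KO, at 0.48 (SE 0.197, adjusted p = 0.0421, edgeR), a call lost without either WT library, Xap5 KO replicate 2 or any Sox5 KO library, at values from 0.38 to 0.56.

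Of the 3 tectonics, secreted and membrane proteins of the gate, Tctn1 was lower in Sox5 KO at -0.78 (SE 0.101, adjusted p = 8.03e-07, edgeR), where its libraries held 20.9, 22.3 and 20.6 CPM against 38.5 and 34.6 in WT. Tctn2 was lower in Nono KO, with 18.6, 20.8 and 20.4 CPM against 26.3 and 26.3 in WT and a change of -0.40 (SE 0.107, adjusted p = 0.00384, edgeR). In both genes the knockout libraries named lay below both WT libraries. Tctn3 was higher in Sox5 KO at 0.33 (SE 0.124, adjusted p = 0.0248, edgeR), a call lost without either WT library or without Sox5 KO replicate 1 or 2, at values from 0.28 to 0.37. Tmem67, or meckelin, a receptor-like transmembrane protein, was lower in Sox5 KO at -0.47 (SE 0.146, adjusted p = 0.00812, edgeR). Exons of Tctn1 and Tmem67 overlap those of Hvcn1 and Rbm12b2 on the opposite strand. Mks1, Tmem216, Tmem237 and Tmem17 were called in no knockout against WT in the main fit. With the length and GC offset described below, Tmem237 was called lower in Xap5 KO, at -0.40 (adjusted p = 0.00364), and in Sox5 KO, at -0.49 (adjusted p = 0.000562) in edgeR. With a replicate block, Tmem216 was called higher in Sox5 KO, at 0.44 (adjusted p = 0.0252) in edgeR. Without Nono KO replicate 2, Tmem17 was called higher in Nono KO, at 0.68 (adjusted p = 0.0466) in edgeR. Mks1 and Tmem17 had the lowest levels of the module, with 66 to 192 and 106 to 311 counts per library, and the 95% interval of the Mks1 change in Xap5 KO ran from -0.45 to 0.70.

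In the NPHP module and the rest of the transition zone, no gene rose in Nono KO or Sox5 KO and 4 of 6 fell in each, while in Xap5 KO 1 rose and 2 fell. Lower calls thus made up 66.7% of the group in Nono KO and Sox5 KO, where 25.1% and 30.3% of all tested genes were lower. Rpgrip1l, Cep290, Cspp1 and Nphp4 have transcripts of over 4810 bases. Of all tested genes in that longest class, 34.5% were lower in Nono KO and 57.4% in Sox5 KO. Among these lower calls, those of Iqcb1 in Nono KO and Cspp1 in Sox5 KO were lost under some alternatives, as given below. Cep290, which bridges the axonemal microtubules and the ciliary membrane (ENSMUSG00000019971, chromosome 10), had the most negative log2 fold change of any member in any line. It had 31.9 and 29.3 CPM in WT, 27.7, 26.6 and 27.4 in Xap5 KO, 22.8, 27.3 and 28.3 in Nono KO and 8.01, 6.78 and 8.32 in Sox5 KO. The 3 Sox5 KO libraries lay far below all 8 others, at 25.2% of the WT mean. The change in Sox5 KO was -1.99 (SE 0.117, adjusted p = 5.15e-12, edgeR), and with the chromosome offset described below it was -1.66. The changes of -0.17 in Xap5 KO and -0.23 in Nono KO were not called. With the chromosome offset the Xap5 KO change was 0.30 (adjusted p = 0.0417) in edgeR and was then called higher. The direct differences of Xap5 KO and Nono KO from Sox5 KO were 1.82 (SE 0.109, adjusted p = 8.15e-12, edgeR) and 1.76 (SE 0.109, adjusted p = 1.05e-11, edgeR). Exons of Cep290 overlap those of a gene on the opposite strand, and the handling of strand in the counting is not given in the sources used here.

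Rpgrip1l, which holds the MKS and NPHP modules at the transition zone (ENSMUSG00000033282, chromosome 8), was lower in all 3 lines. It had 42.00 and 43.3 CPM in WT, 32.2, 36.8 and 31.7 in Xap5 KO, 32.5, 33.6 and 33.1 in Nono KO and 22.5, 24.7 and 28.2 in Sox5 KO. All knockout libraries were below WT and those of Sox5 KO were below the rest. The changes were -0.35 (SE 0.0970, adjusted p = 0.00595, edgeR) in Xap5 KO, -0.37 (SE 0.0970, adjusted p = 0.0034, edgeR) in Nono KO and -0.76 (SE 0.0978, adjusted p = 7.55e-07, edgeR) in Sox5 KO. Chromosome 8, its chromosome, had a median of -0.35 in Xap5 KO, and with the chromosome offset the change in that line was 0.0017 and was not called.

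Cspp1, a microtubule-associated Joubert syndrome protein of the centrosome and cilium (ENSMUSG00000056763, chromosome 1), was lower in all 3 lines, at 49.2 and 47.9 CPM in WT, 34.4, 30.9 and 33.1 in Xap5 KO, 28.9, 34.5 and 32.04 in Nono KO and 39.6, 37.9 and 42.4 in Sox5 KO. Every knockout library was below WT, and the Sox5 KO libraries were closest to it. The changes were -0.57 (SE 0.0899, adjusted p = 2.51e-05, edgeR) in Xap5 KO, -0.61 (SE 0.0899, adjusted p = 8.47e-06, edgeR) in Nono KO and -0.28 (SE 0.0903, adjusted p = 0.0105, edgeR) in Sox5 KO. The call in Sox5 KO was lost without WT replicate 1, at -0.27 (adjusted p = 0.0612), and with the length and GC offset, at -0.036 (adjusted p = 0.754) in edgeR. Exons of Cspp1 overlap those of Cops5 on the opposite strand.

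Rpgr, the X-linked regulator mutated in retinitis pigmentosa (ENSMUSG00000031174, chromosome X), fell in Nono KO. It was at 6.85 and 5.81 CPM in WT, 9.39, 8.62 and 9.61 in Xap5 KO, 2.89, 2.22 and 4.45 in Nono KO and 6.22, 6.34 and 6.25 in Sox5 KO. The Nono KO libraries were the lowest 3 of the 11 and the Xap5 KO libraries the highest 3. The change was -0.995 (SE 0.226, adjusted p = 0.000952, edgeR) in Nono KO, and Xap5 KO exceeded Nono KO by 1.54 (SE 0.206, adjusted p = 2.21e-06, edgeR). The median of chromosome X was -0.33 in Nono KO, and with the chromosome offset Rpgr was still called there at -0.66. Rpgr shares exon positions with Srpx on the same strand, so reads of the pair could have been mixed.

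Nphp4, a scaffold of the NPHP module (ENSMUSG00000039577, chromosome 4), rose in Xap5 KO, with 8.44, 7.79 and 10.1 CPM against 6.65 and 5.29 in WT, 5.40, 5.87 and 5.94 in Nono KO and 4.42, 5.22 and 5.52 in Sox5 KO. The Xap5 KO libraries were the highest 3 of the 11. Its change was 0.56 (SE 0.191, adjusted p = 0.0223, edgeR), a call lost without WT replicate 2, at 0.39 (adjusted p = 0.227), and without Xap5 KO replicate 3, at 0.44 (adjusted p = 0.0895) in edgeR. Iqcb1, also known as nephrocystin-5 and a binding partner of Cep290, was lower in Nono KO at -0.42 (SE 0.130, adjusted p = 0.0115, edgeR) and in Sox5 KO at -0.54 (SE 0.131, adjusted p = 0.0013, edgeR). The Nono KO call was lost without WT replicate 2, at -0.33 (adjusted p = 0.137) in edgeR.

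**Figure D3:**
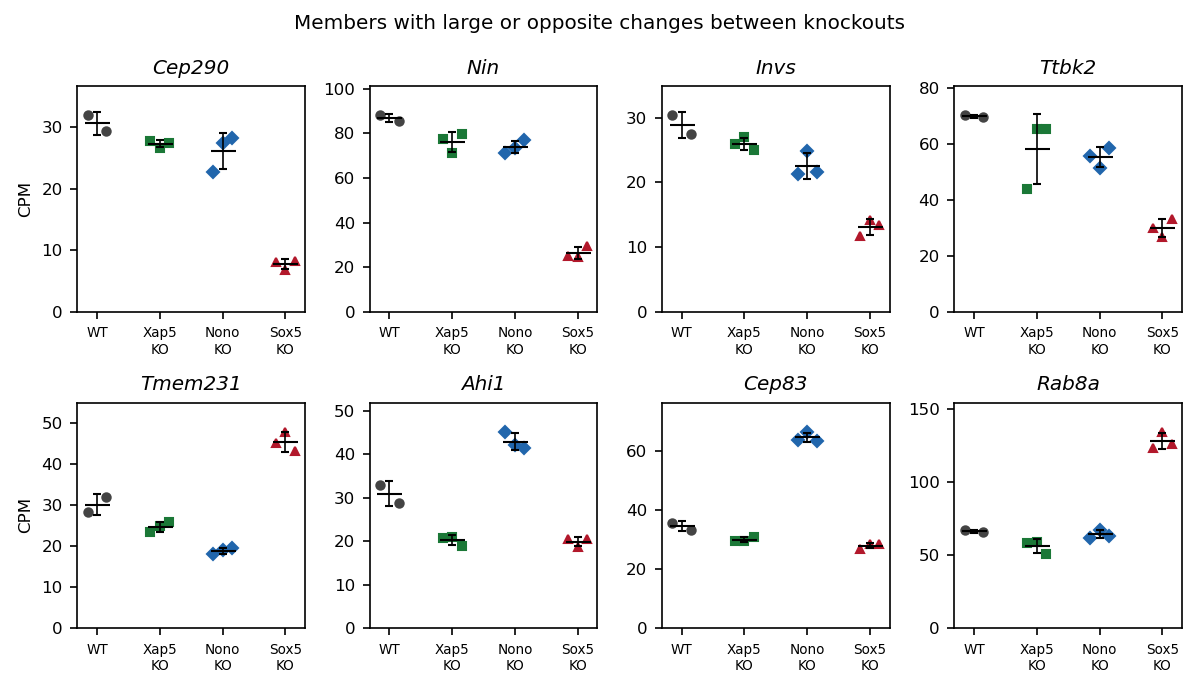
CPM (vertical axis, from 0) in each library of the 4 groups for Cep290, Nin, Invs, Ttbk2, Tmem231, Ahi1, Cep83 and Rab8a, with bars for the mean ± SD. Sox5 KO points are the lowest for the first 4 genes, Nono KO points the highest for Ahi1 and Cep83, and Sox5 KO points the highest for Tmem231 and Rab8a.

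In the inversin compartment, a stretch of the proximal cilium tied to left-right patterning and kidney cysts, the scaffold genes fell and the kinase gene rose in Nono KO and Sox5 KO. These are only 3 genes, 2 lower and 1 higher in each line. Of all tested genes, 25.1% were lower and 23.5% higher in Nono KO, and 30.3% and 30.6% in Sox5 KO. Invs, the inversin scaffold (ENSMUSG00000028344, chromosome 4), was at 30.4 and 27.5 CPM in WT, 25.9, 26.97 and 25.01 in Xap5 KO, 21.3, 24.9 and 21.6 in Nono KO and 11.8, 14.1 and 13.5 in Sox5 KO. The Sox5 KO libraries were below all others, and those of Xap5 KO and Nono KO were below WT. The change was -1.14 (SE 0.111, adjusted p = 1.33e-08, edgeR) in Sox5 KO and -0.36 (SE 0.109, adjusted p = 0.00963, edgeR) in Nono KO, the latter lost without WT replicate 1, at -0.28 (adjusted p = 0.127) in edgeR. In Xap5 KO, -0.16 was not called. Exons of Invs overlap those of Tex10 on the opposite strand.

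Anks6, an ankyrin-repeat partner and activator of Nek8 (ENSMUSG00000066191, chromosome 4), was lower in all 3 lines. Its level was 40.2 and 42.9 CPM in WT, 34.7, 32.5 and 37.8 in Xap5 KO, 19.8, 20.97 and 20.5 in Nono KO and 27.2, 26.3 and 25.2 in Sox5 KO. No group overlapped another, in the order Nono KO, Sox5 KO, Xap5 KO and WT from low to high. The changes were -0.25 (SE 0.0904, adjusted p = 0.0306, edgeR) in Xap5 KO, -1.02 (SE 0.0908, adjusted p = 6.11e-09, edgeR) in Nono KO and -0.66 (SE 0.0910, adjusted p = 1.95e-06, edgeR) in Sox5 KO, and Nono KO was below Sox5 KO by a difference of -0.36 (SE 0.0841, adjusted p = 0.000789, edgeR). The Xap5 KO call was lost without WT replicate 1, at -0.30 (adjusted p = 0.0506), without WT replicate 2, at -0.21 (adjusted p = 0.193), without Xap5 KO replicate 2, at -0.21 (adjusted p = 0.104), and with the length and GC offset, at -0.028 (adjusted p = 0.822) in edgeR. Nek8, the kinase of the compartment, was higher in Nono KO at 0.53 (SE 0.161, adjusted p = 0.00905, edgeR) and in Sox5 KO at 0.41 (SE 0.161, adjusted p = 0.0343, edgeR). Its Nono KO call was lost without WT replicate 1, at 0.42 (adjusted p = 0.116) in edgeR, and its Sox5 KO call without WT replicate 1 or any of the 3 Sox5 KO libraries, at values from 0.28 to 0.43.

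Of the 6 distal appendage genes, 5 were called lower and none higher in Sox5 KO (83.3% lower, against 30.3% of all tested genes), while Xap5 KO had 1 higher and 2 lower and Nono KO 1 higher and 1 lower. Of the 5, Ttbk2 kept its call under every alternative, and Cep83, Fbf1, Cep164 and Sclt1 each lost it under at least 1, as given below. Cep89 did not pass the test. Cep83, the base of the distal appendage (ENSMUSG00000020024, chromosome 10), was the exception in Nono KO. Its libraries held 35.7 and 33.3 CPM in WT, 29.4, 29.6 and 30.9 in Xap5 KO, 63.8, 66.4 and 63.3 in Nono KO and 26.8, 28.6 and 28.4 in Sox5 KO. The Nono KO libraries were far above the other 8, at 187% of the WT mean, and those of Xap5 KO and Sox5 KO were below WT. The changes were 0.90 (SE 0.0815, adjusted p = 7.87e-09, edgeR) in Nono KO, -0.30 (SE 0.0807, adjusted p = 0.00286, edgeR) in Sox5 KO and -0.20 (SE 0.0802, adjusted p = 0.0443, edgeR) in Xap5 KO. Cep83 lies on chromosome 10, whose median was -0.46 in Xap5 KO and -0.32 in Sox5 KO, and with the chromosome offset the values there were 0.26 (adjusted p = 0.0142) and 0.021 (adjusted p = 0.841) in edgeR, against 1.04 in Nono KO. The Xap5 KO call was also lost without either WT library, Xap5 KO replicate 1 or 2, Nono KO replicate 1 or Sox5 KO replicate 2 or 3, at values from -0.26 to -0.16.

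Ttbk2, the tau tubulin kinase whose arrival at the distal appendages starts axoneme growth (ENSMUSG00000090100, chromosome 2), was at 70.2 and 69.6 CPM in WT, 43.8, 65.5 and 65.4 in Xap5 KO, 55.9, 51.5 and 58.5 in Nono KO and 29.9, 26.7 and 33.04 in Sox5 KO. The Sox5 KO libraries were the lowest, and Xap5 KO replicate 1 lay between them and the rest. The change in Sox5 KO was -1.22 (SE 0.147, adjusted p = 8.18e-06, edgeR), and -0.26 in Xap5 KO and -0.34 in Nono KO were not called. Every Nono KO library was nevertheless below both WT libraries. The Nono KO change was called lower without Xap5 KO replicate 1, at -0.33 (adjusted p = 0.00304), and with only the groups compared, at -0.32 (adjusted p = 0.00268) in edgeR. It was also called with a replicate block, with library totals and with DESeq2. Ttbk2 has the longest transcript of the 44, and with the length and GC offset its change in Sox5 KO was -0.47 (adjusted p = 0.0124) in edgeR and still called. Its exons overlap those of Cdan1 on the same strand.

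Fbf1, which gates traffic at the distal appendages (ENSMUSG00000020776, chromosome 11), was lower in all 3 lines, at 79.7 and 79.00 CPM in WT, 66.6, 66.5 and 65.7 in Xap5 KO, 54.4, 70.2 and 59.4 in Nono KO and 54.9, 58.5 and 55.8 in Sox5 KO. All knockout libraries were below WT. The changes were -0.26 (SE 0.0846, adjusted p = 0.016, edgeR) in Xap5 KO, -0.37 (SE 0.0846, adjusted p = 0.001, edgeR) in Nono KO and -0.49 (SE 0.0849, adjusted p = 3.53e-05, edgeR) in Sox5 KO. The Xap5 KO call was lost without WT replicate 1, at -0.27 (adjusted p = 0.0693), and without WT replicate 2, at -0.27 (adjusted p = 0.0621) in edgeR. With the length and GC offset the change was -0.064 in Xap5 KO and -0.13 in Sox5 KO, neither called.

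Cep164, which recruits Ttbk2, was lower in Sox5 KO at -0.42 (SE 0.0955, adjusted p = 0.000659, edgeR), with 44.5, 56.8 and 58.2 CPM against 69.99 and 72.5 in WT. All 3 libraries were below WT, but with the length and GC offset the change was 0.046 (adjusted p = 0.673) in edgeR. Sclt1, an appendage scaffold, was higher in Xap5 KO at 0.44 (SE 0.156, adjusted p = 0.025, edgeR) and lower in Sox5 KO at -0.37 (SE 0.157, adjusted p = 0.0482, edgeR). The Xap5 KO call was lost without WT replicate 2 or Xap5 KO replicate 1 or 2, at values from 0.25 to 0.44. The Sox5 KO call was lost without WT replicate 1, Xap5 KO replicate 2, Nono KO replicate 1 or 2 or Sox5 KO replicate 1 or 2, at values from -0.40 to -0.16, and with the chromosome offset, at -0.15 (adjusted p = 0.429) in edgeR. The direct difference between Xap5 KO and Sox5 KO was 0.81 (SE 0.142, adjusted p = 3.89e-05, edgeR). Cep89 was called in no knockout against WT in the main fit, and its changes ran from -0.26 in Nono KO to 0.28 in Xap5 KO. With library totals it was called lower in Nono KO, at -0.43 (adjusted p = 0.00824) in edgeR.

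Both genes of the centriole cap, which restrains cilium growth, were lower in Nono KO and Sox5 KO, where 25.1% and 30.3% of all tested genes were lower. Cep97 (ENSMUSG00000022604, chromosome 16) was at 17.6 and 17.8 CPM in WT, 10.8, 13.1 and 14.6 in Xap5 KO, 11.4, 10.1 and 11.6 in Nono KO and 8.57, 8.30 and 9.63 in Sox5 KO. All 9 knockout libraries were below WT, and the Sox5 KO libraries were the lowest 3. The changes were -0.47 (SE 0.144, adjusted p = 0.011, edgeR) in Xap5 KO, -0.69 (SE 0.144, adjusted p = 0.00044, edgeR) in Nono KO and -1.01 (SE 0.146, adjusted p = 4.04e-06, edgeR) in Sox5 KO. The Xap5 KO call was lost without WT replicate 2, at -0.47 (adjusted p = 0.0579) in edgeR.

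Ccp110, the binding partner of Cep97 (ENSMUSG00000033904, chromosome 7), had 53.2 and 47.1 CPM in WT, 46.3, 52.2 and 49.2 in Xap5 KO, 29.2, 31.5 and 32.1 in Nono KO and 31.2, 33.99 and 38.1 in Sox5 KO. The Nono KO and Sox5 KO libraries were below WT, and those of Xap5 KO overlapped it. The changes were -0.70 (SE 0.0940, adjusted p = 2.68e-06, edgeR) in Nono KO and -0.54 (SE 0.0944, adjusted p = 3.89e-05, edgeR) in Sox5 KO, and Xap5 KO exceeded Nono KO by 0.67 (SE 0.0855, adjusted p = 1.08e-06, edgeR). With the length and GC offset the Sox5 KO change was -0.099 (adjusted p = 0.363) in edgeR and was not called.

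Among the subdistal appendage genes, Nin fell most. Nin, or ninein, which anchors microtubules at the mother centriole (ENSMUSG00000021068, chromosome 12), was at 87.95 and 85.5 CPM in WT, 77.5, 71.1 and 79.6 in Xap5 KO, 71.3, 73.5 and 76.8 in Nono KO and 25.1, 24.7 and 29.4 in Sox5 KO. The Sox5 KO libraries lay far below the other 8, at 30.4% of the WT mean, and the remaining knockout libraries were below WT. The change was -1.72 (SE 0.0816, adjusted p = 1.73e-13, edgeR) in Sox5 KO and -0.23 (SE 0.0800, adjusted p = 0.0211, edgeR) in Nono KO. In Xap5 KO, -0.19 was not called. It was called lower there with a replicate block, at -0.24 (adjusted p = 0.0155), and with library totals, at -0.24 (adjusted p = 0.0207) in edgeR, among other alternatives. The Nono KO call was lost without WT replicate 1, at -0.21 (adjusted p = 0.135), without WT replicate 2, at -0.24 (adjusted p = 0.0793), and without Nono KO replicate 1, at -0.21 (adjusted p = 0.0714) in edgeR. Nin lies on chromosome 12, whose genes had a median log2 change of -0.75 in Sox5 KO, the lowest of any chromosome there, and with the chromosome offset Nin was at -0.96 (adjusted p = 1.98e-09) in edgeR.

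Ninl, the ninein-like protein (ENSMUSG00000068115, chromosome 2), was lower in all 3 lines, at 55.8 and 54.4 CPM in WT, 39.1, 47.9 and 39.5 in Xap5 KO, 36.8, 40.9 and 34.8 in Nono KO and 42.7, 46.5 and 49.2 in Sox5 KO. Every knockout library was below WT. The changes were -0.39 (SE 0.0978, adjusted p = 0.00281, edgeR) in Xap5 KO, -0.56 (SE 0.0978, adjusted p = 7.25e-05, edgeR) in Nono KO and -0.26 (SE 0.0982, adjusted p = 0.029, edgeR) in Sox5 KO. The Sox5 KO call was lost without either WT library or without Sox5 KO replicate 1 or 2, at values from -0.28 to -0.20, and with the length and GC offset, at -0.0058. Ninl overlaps Nanp on the same strand. Odf2, which appendage assembly requires, was higher in Xap5 KO at 0.28 (SE 0.0743, adjusted p = 0.00453, edgeR) and in Sox5 KO at 0.29 (SE 0.0745, adjusted p = 0.00202, edgeR), and with the chromosome offset the values were 0.15 (adjusted p = 0.119) and 0.15 (adjusted p = 0.0806) in edgeR.

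Of the 5 vesicle docking genes, 4 were called higher and none lower in Sox5 KO (80% higher, against 30.6% of all tested genes). The calls of Ehd1 and Rab8a held under every alternative but the 2-fold rule, those of Rab11a and Rab3ip did not, and Ehd3 at -0.023 did not pass the test. Among 10 other vesicle docking genes, from the wider list described below, 2 were higher and 4 lower in Sox5 KO. Nono KO had 2 higher and none lower, and Xap5 KO had 2 higher and 2 lower. Ehd1, the membrane-shaping ATPase that turns docked vesicles into the ciliary vesicle (ENSMUSG00000024772, chromosome 19), was at 132 and 136 CPM in WT, 195, 197 and 165 in Xap5 KO, 174, 177 and 175 in Nono KO and 243, 246 and 226 in Sox5 KO. All knockout libraries were above WT and those of Sox5 KO were the highest. The changes were 0.47 (SE 0.0695, adjusted p = 1.05e-05, edgeR) in Xap5 KO, 0.39 (SE 0.0694, adjusted p = 9.16e-05, edgeR) in Nono KO and 0.83 (SE 0.0703, adjusted p = 1.63e-09, edgeR) in Sox5 KO. Chromosome 19, which carries Ehd1, had a median of 0.40 in Sox5 KO, and with the chromosome offset Ehd1 was at 0.43 (adjusted p = 1.64e-05) in edgeR.

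Its relative Ehd3 (ENSMUSG00000024065, chromosome 17) rose in Xap5 KO, with 17.7 and 19.2 CPM in WT, 34.2, 31.8 and 31.4 in Xap5 KO, 21.05, 19.5 and 22.5 in Nono KO and 16.5, 20.8 and 17.1 in Sox5 KO. The Xap5 KO libraries lay above all 8 others. The change was 0.82 (SE 0.114, adjusted p = 4.86e-06, edgeR), and Xap5 KO exceeded Nono KO by 0.63 (SE 0.0998, adjusted p = 1.89e-05, edgeR) and Sox5 KO by 0.84 (SE 0.101, adjusted p = 3.13e-07, edgeR).

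Rab8a, the GTPase that extends the ciliary membrane (ENSMUSG00000003037, chromosome 8), was at 67.01 and 65.5 CPM in WT, 58.5, 59.2 and 50.7 in Xap5 KO, 62.01, 67.3 and 63.3 in Nono KO and 123, 134 and 126 in Sox5 KO. The Sox5 KO libraries were above all others, at 193% of the WT mean. The change was 0.95 (SE 0.0763, adjusted p = 7.57e-10, edgeR) in Sox5 KO, and Nono KO was below Sox5 KO by a difference of -0.99 (SE 0.0671, adjusted p = 3.96e-11, edgeR). In Xap5 KO it was -0.24 (SE 0.0745, adjusted p = 0.0122, edgeR), which was lost without WT replicate 1, at -0.23 (adjusted p = 0.0703), and was 0.11 (adjusted p = 0.274) with the chromosome offset in edgeR.

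Rab11a, which delivers the vesicles, was lower in Xap5 KO at -0.33 (SE 0.0725, adjusted p = 0.000794, edgeR), with 81.8, 92.03 and 98.02 CPM against 114 and 114 in WT. In Sox5 KO it was higher by 0.20 (SE 0.0731, adjusted p = 0.0209, edgeR), a call lost without either WT library or without Sox5 KO replicate 1, at values from 0.16 to 0.20, with library totals and with either offset. Rab3ip, or Rabin8, the exchange factor that activates Rab8a, was higher in Nono KO at 0.46 (SE 0.0990, adjusted p = 0.000584, edgeR), with 33.02, 34.5 and 34.9 CPM against 26.2 and 23.4 in WT. All 3 Nono KO libraries were above WT. In Sox5 KO Rab3ip was higher by 0.24 (SE 0.0992, adjusted p = 0.0425, edgeR), a call lost without WT replicate 2, at 0.16 (adjusted p = 0.323), without Sox5 KO replicate 1, at 0.22 (adjusted p = 0.105), and without Sox5 KO replicate 2, at 0.21 (adjusted p = 0.117) in edgeR, and also with library totals, at 0.12, and the length and GC offset, at 0.087.

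The centriole and satellite genes split by line. Ofd1, which limits distal centriole length (ENSMUSG00000040586, chromosome X), was at 14.7 and 16.02 CPM in WT, 23.9, 23.6 and 22.1 in Xap5 KO, 20.4, 18.2 and 18.1 in Nono KO and 13.5, 16.1 and 15.4 in Sox5 KO. Xap5 KO and Nono KO libraries were above WT, those of Xap5 KO the highest, and Sox5 KO overlapped WT. The change was 0.59 (SE 0.117, adjusted p = 0.000282, edgeR) in Xap5 KO and 0.30 (SE 0.116, adjusted p = 0.0393, edgeR) in Nono KO. The Nono KO call was lost without WT replicate 1, at 0.24 (adjusted p = 0.225), without WT replicate 2, at 0.37 (adjusted p = 0.0627), and without Nono KO replicate 1, at 0.24 (adjusted p = 0.133) in edgeR. The median of chromosome X was 0.36 in Xap5 KO and -0.33 in Nono KO, and with the chromosome offset the changes were 0.24 (adjusted p = 0.115) and 0.63 (adjusted p = 0.000151) in edgeR, so the higher level in Xap5 KO than in Nono KO turned into a difference of -0.39. Exons of Ofd1 overlap those of Trappc2 on the opposite strand.

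Cep135, a component of the centriole's core, was lower in Sox5 KO at -0.86 (SE 0.122, adjusted p = 3.04e-06, edgeR), with 9.43, 8.98 and 10.8 CPM against 17.5 and 18.02 in WT, and in Nono KO at -0.37 (SE 0.121, adjusted p = 0.0154, edgeR). All libraries of both lines were below WT, and the Nono KO call was lost without WT replicate 1, at -0.39 (adjusted p = 0.0582), and without WT replicate 2, at -0.34 (adjusted p = 0.102) in edgeR. Pcm1, the scaffold of the satellites, was lower in Sox5 KO at -0.60 (SE 0.0686, adjusted p = 1.53e-07, edgeR), with 97.4, 101 and 109 CPM against 155 and 155 in WT, and in Xap5 KO at -0.37 (SE 0.0684, adjusted p = 0.000147, edgeR), which with the offset for chromosome 8 was -0.022 (adjusted p = 0.839) in edgeR.

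Cep120, needed for centriole elongation, was lower in Nono KO at -0.53 (SE 0.0836, adjusted p = 1.80e-05, edgeR) and in Sox5 KO at -0.39 (SE 0.0840, adjusted p = 0.000372, edgeR). Cep131, a satellite protein, was lower in Nono KO at -0.50 (SE 0.113, adjusted p = 0.000846, edgeR), where its libraries held 21.3, 26.3 and 18.8 CPM against 30.3 and 32.6 in WT. All 3 were below WT, and the call was lost with the length and GC offset, at -0.27 (adjusted p = 0.0617) in edgeR. Cep19, which prepares the basal body for intraflagellar transport, was higher in Nono KO at 0.33 (SE 0.122, adjusted p = 0.0329, edgeR) and in Sox5 KO at 0.30 (SE 0.123, adjusted p = 0.0396, edgeR). The Nono KO call was lost without WT replicate 2 or Nono KO replicate 1 or 3, at values from 0.25 to 0.31, and the Sox5 KO call without either WT library or any Sox5 KO library, at values from 0.21 to 0.38.

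The knockout lines were also compared directly in the same fit, where the WT libraries entered only the gene filter, the scaling and the shared spread. Xap5 KO was higher than Nono KO for 17 members and lower for 8, where 53.0% of all tested genes were called, 27.1% higher and 25.9% lower. It was higher than Sox5 KO for 23 and lower for 9, where 61.6% were called, 31.1% higher and 30.4% lower. Nono KO was higher than Sox5 KO for 15 and lower for 14, where 63.5% were called, 30.9% higher and 32.6% lower. Differences of 2-fold or more were called for 3, 4 and 5 members in these comparisons and for 11.1%, 15% and 17.0% of all tested genes. In the NPHP group, Xap5 KO exceeded Sox5 KO for 5 of 6 genes and was lower for Cspp1. The distal appendages were higher in Xap5 KO than in Sox5 KO for 5 of 6 genes, with no call for Cep83. In vesicle docking the order was the other way, with 4 of 5 genes lower in the former line and Ehd3 higher.

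Transcript length moved with the Sox5 KO changes, across all genes and across the members alike. All tested genes were split into 4 equal classes by the length of their longest transcript. Their median log2 fold change in Sox5 KO was 0.42 in the class of up to 2196 bases, 0.10 up to 3376, -0.082 up to 4809 and -0.41 from 4810 bases on, and 57.4% of this longest class were called lower. It held 17 members, of which 16 were called lower, with a median of -0.76. It also held 8 lower members in Xap5 KO and 10 in Nono KO, where 30.2% and 34.5% of all genes of the class were lower. The members' median length was 3962.5 bases against 3376 over all tested genes. From the shortest to the longest class, the medians over all tested genes ran only from 0.077 to -0.053 in Xap5 KO and from 0.093 to -0.099 in Nono KO. With an offset fitted to length and GC content, 22 of the 32 Sox5 KO calls kept direction and call, 7 were no longer called and 3 changed sign, and the members then had 5 higher and 19 lower calls. Cep290 at -1.41, Nin at -1.05, Invs at -0.85, Cep97 at -0.47, Rab8a at 1.09 and Ehd1 at 0.95 remained called. Those no longer called were Ccp110, Cspp1, Fbf1, Ninl, Rab11a, Rab3ip and Tctn3, and those that changed sign were B9d2, Cep164 and Cep19. In Xap5 KO the offset ended the calls of Anks6, Fbf1 and Sclt1, and in Nono KO those of Cep131, Cep19 and Ofd1. What underlies the length trend was not tested.

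**Figure D4:**
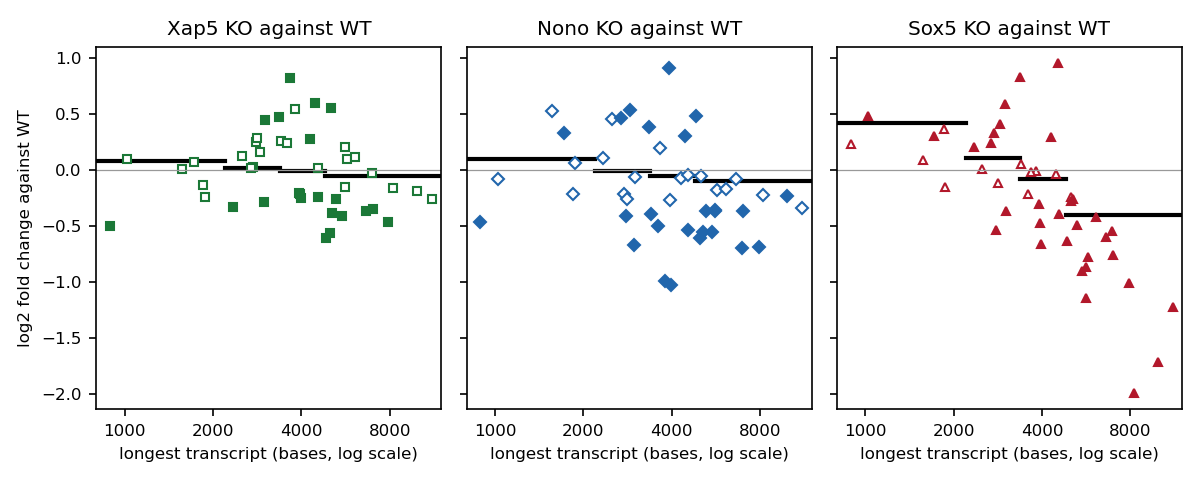
Log2 fold change against WT (vertical axis) of each member against the length of its longest transcript in bases (horizontal log axis) in the 3 knockouts, with filled symbols for called changes and black bars for the medians of all tested genes in each length class. In Sox5 KO the bars step down from 0.42 to -0.41 and the longest members, Cep290, Nin and Ttbk2, lie below them.

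Whole chromosomes differed between the lines as well. In Xap5 KO the medians were -0.46 on chromosome 10, -0.35 on chromosome 8 and 0.36 on chromosome X. In Nono KO they were 0.35 on chromosome 9, -0.33 on X and 0.27 on 16, and in Sox5 KO -0.75 on 12, -0.35 on 6 and 0.40 on 19. With an offset for each chromosome's median, 12 of the 20 Xap5 KO calls of members kept direction and call, 4 were no longer called (Ahi1, Odf2, Ofd1 and Pcm1) and 4 changed sign (Cep83 on chromosome 10 and Rab8a, Tmem231 and Rpgrip1l on chromosome 8). In Nono KO, 22 of 25 kept direction and call, and Cep135, Cep19 and Tctn2 were no longer called. In Sox5 KO, 24 of 32 kept direction and call, 6 were no longer called (B9d2, Nek8, Odf2, Rab11a, Sclt1 and Tmem67), and Cep83 and Tctn3 changed sign. The split of calls moved from 6 higher and 14 lower to 7 and 8 in Xap5 KO and from 10 and 22 to 5 and 20 in Sox5 KO.

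**Figure D5:**
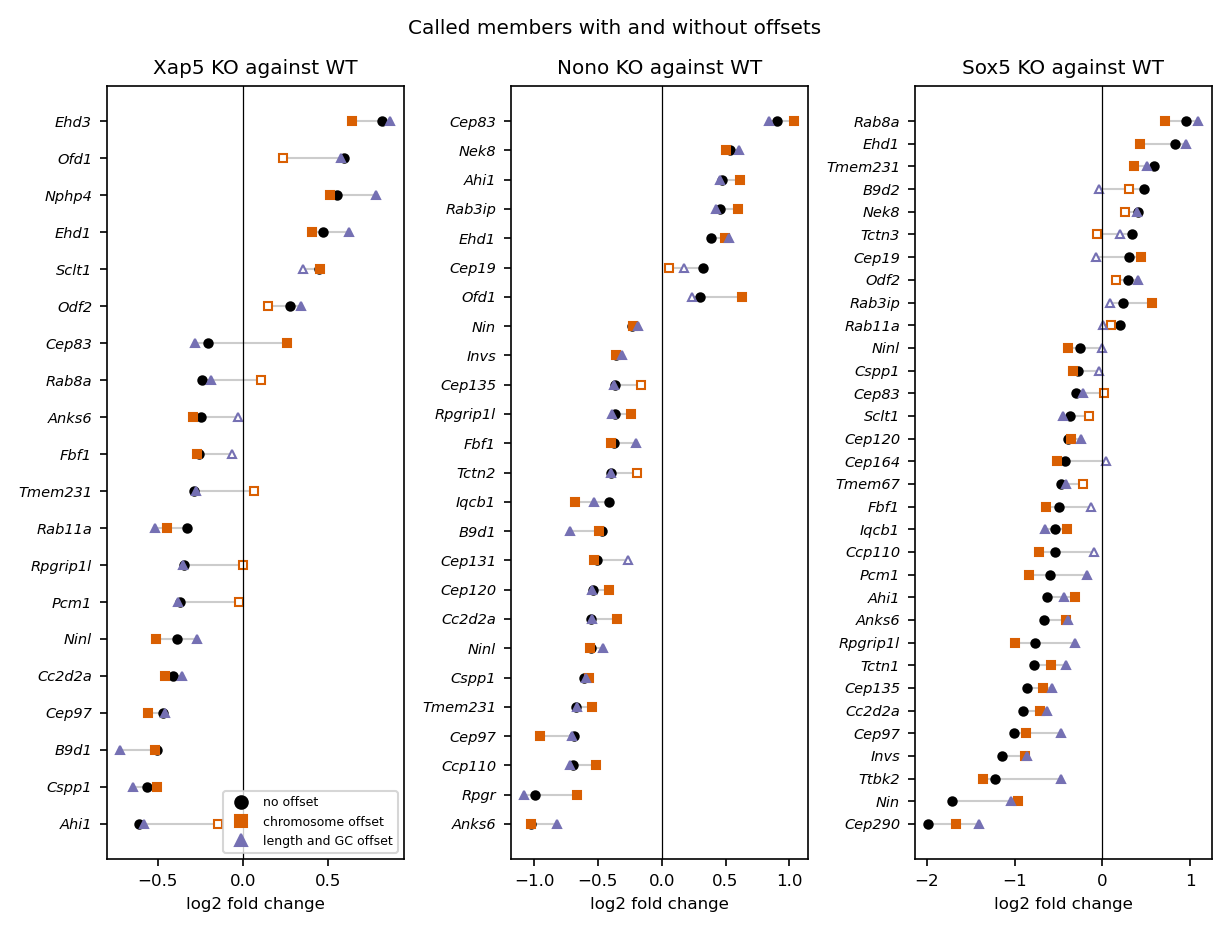
Log2 fold change against WT (horizontal axis) of every called member in the 3 knockouts (panels), without an offset (circles), with the chromosome offset (squares) and with the length and GC offset (triangles), filled where called. Cep83 in Xap5 KO crosses 0 from -0.20 to 0.26, and Nin in Sox5 KO moves from -1.72 to -0.96 and -1.05 and stays called.

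A wider list of 51 genes of the same structures, also chosen by name with earlier results of these data known, had 50 tested genes. Of these, 19 were higher and 9 lower in Xap5 KO, 8 higher and 12 lower in Nono KO, and 10 higher and 20 lower in Sox5 KO, with medians of 0.14, -0.083 and -0.12. As shares of the 50, higher and lower calls were 38% and 18% in Xap5 KO, where 23.2% and 22.3% of all tested genes were higher and lower, 16% and 24% in Nono KO against 23.5% and 25.1%, and 20% and 40% in Sox5 KO against 30.6% and 30.3%. Both shares in Nono KO were thus below those of all genes. The 11 tested other transition zone genes had 4 higher and 1 lower in Xap5 KO, none higher and 1 lower in Nono KO and 5 higher and 2 lower in Sox5 KO. The 7 further appendage genes had no higher call in any line and 4, 6 and 4 lower calls in that order. The 10 other vesicle docking genes had 4 higher and 2 lower in Xap5 KO, 4 higher and 1 lower in Nono KO and 2 higher and 4 lower in Sox5 KO, where their median was -0.13, against 4 higher and none lower of the 5 members. The 13 other centriole and satellite genes had 6 higher and 1 lower in Xap5 KO, 2 higher and 3 lower in Nono KO and none higher and 6 lower in Sox5 KO. The 9 genes that restrain or dismantle cilia had 5 higher and 1 lower, 2 higher and 1 lower, and 3 higher and 4 lower in the same order. Cep128, a subdistal appendage protein, was at 13.1 and 12.1 CPM in WT and 3.90, 5.39 and 5.90 in Sox5 KO, a change of -1.32 (SE 0.177, adjusted p = 1.45e-06, edgeR). Ccdc68, another appendage gene, was close to the limit of detection, with 20 and 49 counts in WT, 0, 3 and 8 in Xap5 KO, 0, 0 and 4 in Nono KO and 7, 17 and 12 in Sox5 KO, and was called lower in Xap5 KO and Nono KO.

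Among the other vesicle docking genes, Micall1, an endosomal adaptor that works with Ehd1, was lower in all 3 lines. Its level was 128 and 128 CPM in WT, 71.2, 62.4 and 70.9 in Xap5 KO, 70.3, 79.6 and 74.4 in Nono KO and 46.5, 54.2 and 56.9 in Sox5 KO. No knockout library came near the WT libraries, and the direction was opposite to that of Ehd1. The changes were -0.91 (SE 0.0828, adjusted p = 1.30e-08, edgeR) in Xap5 KO, -0.77 (SE 0.0828, adjusted p = 1.08e-07, edgeR) in Nono KO and -1.28 (SE 0.0835, adjusted p = 2.51e-11, edgeR) in Sox5 KO. Exons of Micall1 overlap those of a gene on the opposite strand.

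Of the enzymes that dismantle cilia, Aurka rose in all 3 lines, and Hdac6 rose in Xap5 KO and fell in Nono KO. Aurka, the mitotic kinase that also drives cilium disassembly, was at 10.6 and 8.94 CPM in WT, 23.01, 22.5 and 24.8 in Xap5 KO, 15.2, 13.9 and 11.9 in Nono KO and 20.1, 15.96 and 16.4 in Sox5 KO. All knockout libraries were above WT, with Xap5 KO the highest, in the same line in which the summed cycling markers were highest, and the part of those markers was not tested. The changes were 1.26 (SE 0.142, adjusted p = 3.01e-07, edgeR) in Xap5 KO, 0.48 (SE 0.141, adjusted p = 0.00706, edgeR) in Nono KO and 0.84 (SE 0.142, adjusted p = 2.80e-05, edgeR) in Sox5 KO. Hdac6, the deacetylase of ciliary tubulin, was at 35.5 and 32.2 CPM in WT, 41.97, 39.9 and 44.4 in Xap5 KO, 15.99, 19.02 and 17.6 in Nono KO and 31.3, 34.9 and 32.2 in Sox5 KO. The Nono KO libraries were below WT, the Xap5 KO libraries above it, and those of Sox5 KO overlapped it. The changes were -0.95 (SE 0.0963, adjusted p = 4.94e-08, edgeR) in Nono KO and 0.31 (SE 0.0961, adjusted p = 0.011, edgeR) in Xap5 KO, on chromosome X, whose medians were -0.33 and 0.36 in these lines. In Sox5 KO the change of -0.045 (SE 0.0963, adjusted p = 0.708, edgeR) was not called.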

How the data were processed

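Gene expression was measured by RNA-seq in 11 libraries of 4 groups. The values are whole numbers per gene as deposited by the authors and were handled as estimated counts, since the submitters' processing notes name HISAT2 2.1.0, StringTie 1.3.3b and DESeq2 1.12.4 and the builds GRCm39 and mm39 without roles. RNA was extracted with TRIzol and prepared with a NEBNext Ultra II kit, per the labels' protocols. Annotation and strand setting are not given in the sources used here. The deposited table held counts already in whole numbers, so none needed rounding.

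All 11 libraries entered 1 edgeR 4.0.16 quasi-likelihood fit (R 4.3.3, TMM scaling, robust, 1 coefficient a group) of the 13332 genes kept by filterByExpr with a minimum count of 10, and p-values were adjusted by Benjamini-Hochberg over all of them. A change was called at an adjusted p under 0.05. The common biological coefficient of variation was 10.6%. Libraries of 30205878 to 43498383 counts differed within groups beyond sampling noise (chi-square per gene 9.03 to 30.8). CPM used TMM-scaled library sizes. The script was tested on simulated data.

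Chromosome, longest transcript, GC content and exon overlaps came from GENCODE M21 on GRCm38, matched by gene ID or, for Tctn2, by symbol, and served no coordinates. The offsets added to the fit were each knockout's median change per chromosome, or a smooth of each library's deviations on length and GC content (mgcv 1.9.3). Alternatives also used DESeq2 1.42.0. Genes with values in every library were those called the same way in all 3 knockouts and the 6 with the largest called changes in each line, with 2 per line from the wider list; other members were given values to show their groups. The members and lists were chosen with earlier results of these data known. Promoter sequences are from RefSeq.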

Additional observations from a re-analysis of the deposited data

How the results depend on the processing

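The alternatives were DESeq2, RLE scaling, library totals, no expression filter, a minimum of 10 counts in every library, fits of only the groups compared, a replicate block, leaving out each library, and offsets for chromosome and for length and GC content. Of the 77 called changes of members against WT, 68 kept their direction and 38 kept direction and call under every one. Other changes against WT gained a call in the same direction, 3 with the chromosome offset, 6 with the length and GC offset and 14 with library totals. Among them in Xap5 KO were Rab3ip at 0.48 with the chromosome offset, and Cep131 at 0.47 and Cep164 at 0.32 with the length and GC offset. Leaving out 1 library gave 14 to 22 called members in Xap5 KO (fewest without WT replicate 2), 19 to 26 in Nono KO (fewest without WT replicate 1) and 24 to 33 in Sox5 KO (fewest without Sox5 KO replicate 1). Between Xap5 KO and Nono KO it gave 24 to 27, between Xap5 KO and Sox5 KO 29 to 33, between Nono KO and Sox5 KO 26 to 30, and 4 to 9 genes were called the same way in all 3 lines. With 1 WT library left, that library was assumed to vary like the other groups, and the share of all tested genes called against WT also fell in each line. Asking also for a 2-fold change left 0 members in Xap5 KO, 1 in Nono KO, 5 in Sox5 KO, 3, 4 and 5 in the comparisons between knockouts and 0 in common, since that rule is stricter. The length and GC offset left 5 genes in common.

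With the chromosome offset, the sign changed in Xap5 KO for Rab8a (0.11), Cep290 (0.30), Cep83 (0.26), Tmem231 (0.063) and Rpgrip1l (0.0017), in Nono KO for Rab11a (-0.24) and in Sox5 KO for Cep83 (0.021) and Tctn3 (-0.066). Between Xap5 KO and Nono KO it changed for Rab8a (0.029) and Ofd1 (-0.39), between Xap5 KO and Sox5 KO for Tctn3 (0.029), and between Nono KO and Sox5 KO for Cep97 (-0.082), Ehd1 (0.061), Ccp110 (0.20) and Cep19 (-0.38). With the length and GC offset it changed in Sox5 KO for B9d1 (-0.41), Cep19 (-0.078), Cep164 (0.046) and B9d2 (-0.042), between Xap5 KO and Sox5 KO for Pcm1 (-0.20) and Rpgrip1l (-0.045), and between Nono KO and Sox5 KO for Cep97 (-0.23), Rpgrip1l (-0.079) and Cep164 (-0.036). Among the sign changes against WT, Cep290 and Cep83 in Xap5 KO and Rab11a in Nono KO were then called with the chromosome offset. B9d1 in Sox5 KO was then called with the length and GC offset, and the others against WT were not called. The cause of the sign changes was not tested.

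Splits of higher against lower calls that moved by over 10 percentage points, beside those given above and leaving aside the 2-fold rule, were 5 and 21 in Sox5 KO without WT replicate 2, 4 and 20 without Sox5 KO replicate 1, 5 and 20 without Sox5 KO replicate 2, 24 and 5 between Xap5 KO and Nono KO with library totals, 9 and 13 in Xap5 KO with the length and GC offset, and 9 and 15 between Nono KO and Sox5 KO with that offset. Same-numbered libraries of different groups had deviations correlated between -0.023 and 0.046, so the numbers give no pairing. The replicate block gave 20, 26 and 29 called members against WT, 25, 32 and 29 between knockouts and 9 in common. DESeq2 called 20, 26 and 28 members against WT. Depth limits Mks1, Tmem17, Rpgr and Nphp4, whose levels were under 11 CPM in every library.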
